A study of Homo sapiens with 6 samples.

Results

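A set of 10 genes was followed that holds actin isoforms, the transcription factor SRF and contractile or matricellular genes that SRF is known to regulate: ACTA2, ACTB, ACTG1, ACTG2, TAGLN, CNN1, MYL9, CCN1, CCN2 and SRF. They are 10 of the 20046 genes with a probe on the array, and all 17 probes that the platform annotation gives to these symbols were taken, of 47323 probes in all. The members were chosen by symbol with their differences between the groups of these arrays already known, so their levels and differences are given as a description. Where a member is said to pass the threshold used for all genes or probes, nothing is drawn from it. HEK293 cells, an established line from human embryonic kidney, grown in serum, formed a control at 0 min and groups exposed to 50 mM sodium salicylate for 30 or 60 min. Each of the 3 groups had 2 arrays. No group was mock treated for the same times, so salicylate itself cannot be told apart from handling, time or added sodium. The labels leave it unsaid whether replicate arrays stem from separate cultures, and p-values therefore reflect the spread between these arrays alone, which could be technical.

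Actin is the subunit of the thin filaments of every cell. ACTB and ACTG1 encode the cytoplasmic isoforms that nearly all cells carry, whereas ACTA2 encodes the alpha isoform of vascular smooth muscle and of myofibroblasts. SRF binds a DNA element called the CArG box together with 1 of 2 families of cofactor. The myocardin-related factors MRTFA and MRTFB bind free actin monomers and are released when actin polymerises, so that actin filament assembly is known to feed back on actin and cytoskeletal genes. The ternary complex factors ELK1, ELK3 and ELK4 respond to mitogen-activated kinases and act with SRF at immediate early genes such as FOS. CCN1 and CCN2 encode secreted matricellular proteins and are known targets of SRF and of YAP with TEAD factors. Aspirin is broken down to salicylate in the body.

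Promoter windows of 250 bases before the annotated start are shown for ACTA2, SRF, CCN2 and ACTG1. ACTA2 was the member with the largest difference. SRF and CCN2 read lower at 60 min, though no CCN2 probe passed the threshold against control. ACTG1 is a cytoplasmic actin gene whose groups overlapped. RefSeq windows (GRCh38.p14) were matched for 6 of the 10 genes, with 8 windows in all. Sequences run 5′ to 3′ on the gene's own strand, and capitals mark a CArG box, a CArG box with 1 of its central bases off (ACTA2 only), or the TEAD motif CATTCC and its reverse complement GGAATG, searched on both strands.
ACTA2, chr10:88952774-88953023, minus strand: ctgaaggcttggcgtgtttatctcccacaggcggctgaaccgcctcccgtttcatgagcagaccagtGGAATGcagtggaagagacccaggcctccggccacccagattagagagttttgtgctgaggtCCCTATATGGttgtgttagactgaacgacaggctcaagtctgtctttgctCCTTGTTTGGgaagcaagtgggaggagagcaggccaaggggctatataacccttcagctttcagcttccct
SRF, chr6:43171019-43171268, plus strand: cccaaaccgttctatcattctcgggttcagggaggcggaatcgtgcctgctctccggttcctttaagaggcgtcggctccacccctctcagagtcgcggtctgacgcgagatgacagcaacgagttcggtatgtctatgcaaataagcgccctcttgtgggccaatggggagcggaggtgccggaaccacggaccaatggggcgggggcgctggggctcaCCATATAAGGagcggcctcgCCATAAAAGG
CCN2, chr6:131951373-131951622, minus strand: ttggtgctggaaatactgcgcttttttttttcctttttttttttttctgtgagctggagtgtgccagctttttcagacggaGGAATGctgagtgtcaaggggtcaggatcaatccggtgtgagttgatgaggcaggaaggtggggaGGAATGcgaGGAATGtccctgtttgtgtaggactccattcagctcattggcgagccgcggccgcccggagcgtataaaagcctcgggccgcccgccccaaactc
ACTG1, chr17:81512800-81513049, minus strand: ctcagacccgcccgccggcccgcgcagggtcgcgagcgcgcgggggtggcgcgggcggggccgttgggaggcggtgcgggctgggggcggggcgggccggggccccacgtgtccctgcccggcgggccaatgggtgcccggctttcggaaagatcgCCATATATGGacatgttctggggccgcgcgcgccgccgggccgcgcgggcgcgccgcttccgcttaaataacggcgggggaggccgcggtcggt
The ACTA2 window held 2 CArG boxes with 1 central base off, which begin 121 and 71 bases before the start, and 1 TEAD motif 183 bases before it. The SRF window held 2 exact CArG boxes, 30 and 10 bases before the start, and the ACTG1 window held 1, 94 bases before it. The CCN2 window held 3 TEAD motifs, at 169, 104 and 95 bases. The window of ACTG2, the enteric smooth muscle actin, held 2 exact CArG boxes at 110 and 73 bases, and that of CNN1 held none of these motifs. The other annotated window of ACTA2 and that of SRF held none. Of 35116 windows of the same length, 1.16% held an exact CArG box, 5.96% held one with 1 central base off and 11.9% held the TEAD motif. These matches describe letters in a window and say nothing of binding.

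The arrays were alike in quality. Between 20726 and 21740 probes were detected on each array at a detection p-value under 0.05, and the log2 levels of any pair of arrays correlated at 0.9906 to 0.9968 across genes. Detection on 2 or more of the 6 arrays was required, which 22377 probes met. With the brightest such probe taken for each gene, 12547 genes were tested. Values below are log2 normalized intensities (levels) or differences of group means on that scale, with the standard error (SE) of a linear fit to all 6 arrays. Bead intensities compress large changes, precision is limited by the number of arrays, and levels of different probes are not set against each other. Where the arrays of a group are said to lie above or below others, the share of all probes that do so was not counted. Such statements are a description, for every gene below.

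ACTA2 transcript was higher at 60 min of salicylate, while the level at 30 min lay within the range of the control arrays. Its probe (ILMN_1671703) read 10.21 and 10.25 in control cells, 10.21 and 10.23 at 30 min, and 11.31 and 11.42 at 60 min. The deposited intensities, before any normalization, were 1189.8 and 1504.7 in control cells, 1327.6 and 1341.8 at 30 min, and 2498 and 2767 at 60 min. Both 60 min arrays thus stood above all the other arrays on either scale. The mean level was 10.23 ± 0.03 in control cells, 10.22 ± 0.01 at 30 min and 11.37 ± 0.08 at 60 min (SD, n = 2 each). The difference was -0.012 ± 0.066 (SE) for 30 min against control, 1.14 ± 0.066 for 60 min against control and 1.15 ± 0.066 for 60 min against 30 min, which are 0.992-fold, 2.20-fold and 2.22-fold of normalized intensity. Over 15 other settings of the processing the difference for 60 min against control lay between 1.07 and 1.19. Ranked from the highest difference, ACTA2 was number 17 of 12547 genes for 60 min against control, where 21 genes past an adjusted p-value of 0.05 were at least 2-fold higher, and number 9 for 60 min against 30 min. In bulk RNA, more cells with the transcript and more transcript per cell cannot be told apart.

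**Figure D1:**
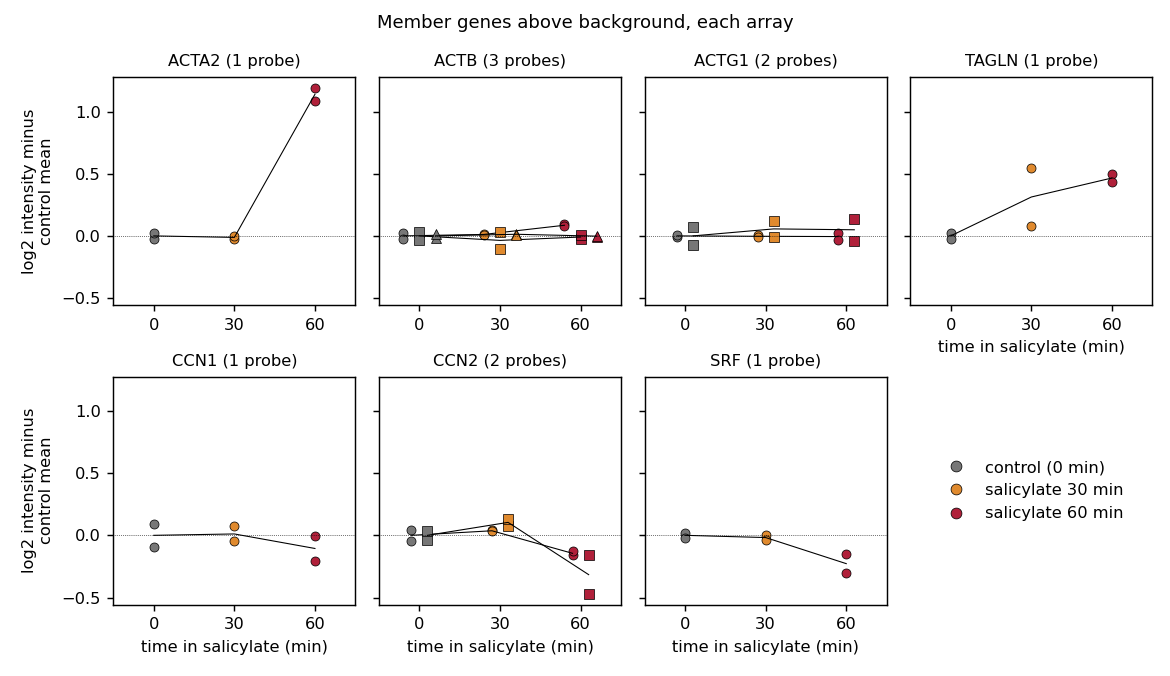
Log2 normalized intensity of each array minus the control mean (y axis) against minutes in salicylate (x axis), with 1 panel for each of the 7 member genes above background. Points are arrays, lines join group means, and point shapes are different probes of a gene. The ACTA2 points at 60 min lie 1.08 and 1.19 above the control mean, and SRF and CCN2 lie below it at 60 min.

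The cytoplasmic actins showed no difference above 0.09 in any comparison. The 3 ACTB probes had log2 levels of 15.08 to 15.43 on every array of every group, and their differences for 60 min against control were 0.09 ± 0.051 (ILMN_1777296), -0.0091 ± 0.059 (ILMN_2038777) and -0.0021 ± 0.051 (ILMN_2152131). The 2 ACTG1 probes gave -0.0054 ± 0.052 (ILMN_1704961) and 0.049 ± 0.073 (ILMN_2053178). The first ACTG1 probe read 14.04 and 14.05 in control cells, 14.05 and 14.03 at 30 min, and 14.06 and 14.01 at 60 min, so the groups overlapped. The second read 15.21 and 15.36 in control cells, 15.40 and 15.27 at 30 min, and 15.42 and 15.24 at 60 min, and its arrays within a group lay further apart than the group means. At gene level the sign of the ACTB and ACTG1 differences turned under some settings, which ranged from -0.02 to 0.07 for ACTB and from -0.04 to 0.14 for ACTG1 at 60 min against control. Probes were ranked by deposited intensity within each array, and the median rank over the 6 arrays was taken. The ACTB probes ranked 114, 75 and 55 and the ACTG1 probes 382 and 80 among 47323 probes. The ACTB probes and the second ACTG1 probe lay near the top of the array's range. Bead intensities are least able to show a change there. The first ACTG1 probe lay lower, at intensities of 15336 to 18495.5, where the highest intensity of an array was 55384 to 59052. ACTB and ACTG1 have near-identical relatives and many processed copies in the genome, and the probes may read them as well: the probe sequences were not used here.

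Among the remaining actins, ACTG2 stayed at background on all 6 arrays, with 1 probe (ILMN_1795325) and detection p-values of 0.536 to 0.796. ACTC1, the cardiac isoform, and ACTBL2, an ACTB relative, were also not above background on any array. ACTA1, the skeletal muscle isoform, was not in the set and had its own time course: 6.95 and 7.14 in control cells, 7.71 and 7.73 at 30 min, and 7.12 and 6.99 at 60 min. Both 30 min arrays stood above the other 4. The ACTA1 difference was 0.68 ± 0.13 for 30 min against control, with an adjusted p-value of 0.054 (limma, Benjamini-Hochberg over all genes), and 0.01 ± 0.13 for 60 min against control. ACTA1 fell by 0.67 ± 0.13 at 60 min against 30 min (adjusted p = 0.00393) and stayed past the threshold under all 15 other settings. Its probe is dim, and without background correction the difference for 60 min against 30 min was -0.41. Thus ACTA1 was highest at the time when ACTA2 was at its control level.

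The smooth muscle contractile genes other than ACTA2 were dim or not above background. TAGLN, or transgelin, an actin-binding protein of smooth muscle, was above background with 1 of its 3 probes (ILMN_1778668). That probe read 6.17 and 6.12 in control cells, 6.23 and 6.69 at 30 min, and 6.64 and 6.58 at 60 min. Both 60 min arrays lay above both control arrays, whereas 1 of the 30 min arrays lay near the control arrays and the other above the 60 min arrays. The difference was 0.31 ± 0.18 for 30 min against control and 0.47 ± 0.18 for 60 min against control, and neither passed the threshold that is used for other genes. The second value was 0.21 without background correction. Its 30 min value was 0.08 without replicate 2 of that group and 0.54 without replicate 1. The other TAGLN probes (ILMN_1706783 and ILMN_2400935) had detection p-values of 0.11 to 0.657. CNN1, or calponin 1, an actin-binding regulator of smooth muscle myosin, had 1 probe (ILMN_1810054) with detection p-values of 0.966 to 0.994. MYL9, a regulatory myosin light chain, had 2 probes (ILMN_1675062 and ILMN_1776953) with detection p-values of 0.175 to 0.981. No difference is given for ACTG2, CNN1 and MYL9, since none was detected on any array.

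Both CCN2 probes read lower at 60 min, but neither passed the threshold against control, and the groups of CCN1 overlapped. CCN1 (CYR61) has 1 probe (ILMN_2188264), which read 9.27 and 9.08 in control cells, 9.12 and 9.24 at 30 min, and 9.17 and 8.96 at 60 min. The groups overlapped, and the difference for 60 min against control was -0.11 ± 0.10, between -0.22 and -0.0028 over the other settings. CCN2 (CTGF) has 2 probes. The brighter (ILMN_1699829) read 8.11 and 8.20 in control cells, 8.20 and 8.19 at 30 min, and 7.99 and 8.03 at 60 min, with differences of 0.04 ± 0.10 for 30 min and -0.14 ± 0.10 for 60 min against control. The dimmer (ILMN_2115125) read 7.60 and 7.67 in control cells, 7.72 and 7.77 at 30 min, and 7.48 and 7.16 at 60 min, with differences of 0.10 ± 0.13 and -0.32 ± 0.13 against control and -0.42 ± 0.13 for 60 min against 30 min. In both CCN2 probes both 60 min arrays lay below all control and 30 min arrays. The share of all probes that separate in this way was not counted. The brighter probe passed the threshold in no comparison, and the dimmer passed it only for 60 min against 30 min. The mean of the probes gave -0.23 for CCN2 at 60 min against control, and the brighter probe gave -0.22 under median scaling and -0.10 without control replicate 2. Of the other CCN genes, CCN3 read 7.19 and 7.12 in control cells, 6.91 and 6.96 at 30 min, and 7.22 and 7.46 at 60 min. It rose by 0.41 ± 0.13 at 60 min against 30 min (limma, adjusted p = 0.0467), a call that was lost under 12 of 15 other settings. CCN4, CCN5 and CCN6 were not above background on any array.

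SRF itself was lower at 60 min. Its probe (ILMN_1803398) read 12.20 and 12.16 in control cells, 12.18 and 12.14 at 30 min, and 12.03 and 11.87 at 60 min. Both 60 min arrays lay below the other 4, and they differed from each other by more than the arrays of the other groups did. The mean level was 12.18 ± 0.03 in control cells, 12.16 ± 0.03 at 30 min and 11.95 ± 0.11 at 60 min (SD, n = 2 each). The difference was -0.02 ± 0.063 for 30 min against control, -0.23 ± 0.063 for 60 min against control (0.854-fold) and -0.21 ± 0.063 for 60 min against 30 min. The 60 min value against control lay between -0.30 and -0.15 over the other settings, and it was -0.15 without 60 min replicate 2.

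**Figure D2:**
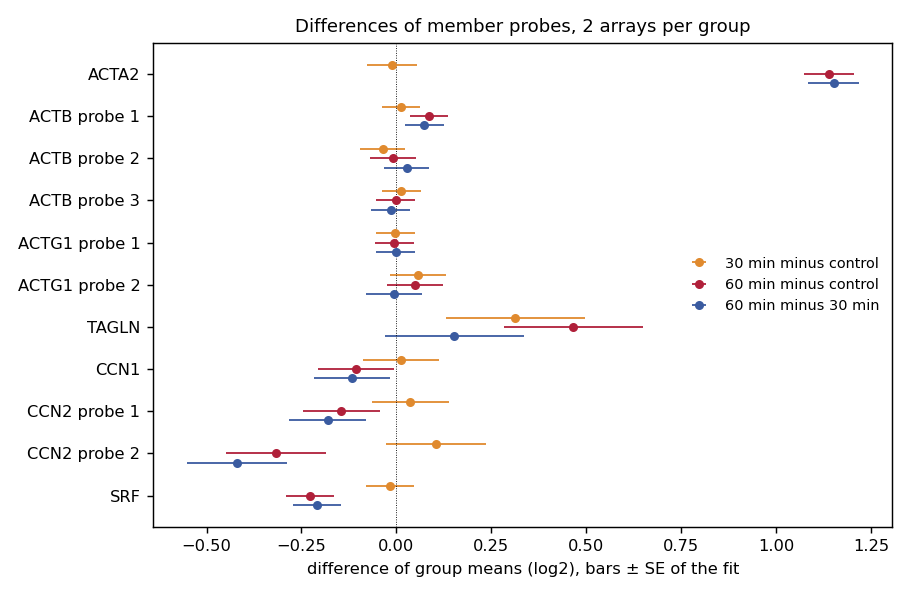
Log2 differences of group means (x axis) for the 11 member probes above background (y axis), with bars of ± 1 SE from the fit and n = 2 arrays per group. ACTA2 stands at 1.14 and 1.15 in both comparisons of 60 min, the ACTB and ACTG1 probes lie within 0.09 of 0, and CCN2 and SRF lie below 0 at 60 min.

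Of the 17 member probes, 11 were kept, and they cover 7 of the 10 genes. None of the 11 passed an adjusted p-value of 0.05 (limma) for 30 min against control, where 0.232% of all kept probes did, and 0 had an unadjusted p-value under 0.05. At 60 min against control, 1 passed with a higher level (ACTA2, against 7.73% of all probes) and 1 with a lower level (SRF, against 8.54%). At 60 min against 30 min, 1 passed as higher (ACTA2, against 7.49%) and 2 as lower (SRF and the dimmer CCN2 probe, against 7.98%). Because the genes were chosen with these values known, and a gene must be detected to be counted, nothing is read from these shares. The median difference of the 7 genes for 60 min against control was -0.0021, and that of all 12547 genes was -0.0083. Apart from ACTA2, the 7 genes ranged from -0.23 to 0.47, against -0.44 to 0.43 for the 5th to 95th percentile of all genes.

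Of 7 SRF cofactors and regulators, 6 were tested. None passed for 30 min against control (limma), where 0.327% of all genes did. An unadjusted p-value under 0.05 was reached by 1, and the share of all genes that reach it was not counted. At 60 min 1 of the 6, ELK4, fell against control, where 12.3% of all genes fell. Against 30 min 2 fell, ELK4 and MRTFA, where 11.7% of all genes fell. ELK4 read 7.35 and 7.47 in control cells, 7.31 and 7.37 at 30 min, and 6.75 and 6.88 at 60 min, so both 60 min arrays lay below the rest. It fell by 0.59 ± 0.13 at 60 min against control (limma, adjusted p = 0.00605) and by 0.53 ± 0.13 against 30 min (adjusted p = 0.0119), and its other detected probes gave -0.42 and -0.57 against control. Without background correction the ELK4 difference against control was -0.34. The call against control was lost only without control replicate 2, and that against 30 min was lost without either 30 min replicate and with no filter on dim probes. MRTFA read 8.35 and 8.51 in control cells, 8.63 and 8.63 at 30 min, and 8.31 and 8.28 at 60 min. It fell by 0.33 ± 0.094 at 60 min against 30 min (adjusted p = 0.0241), a call lost under 4 of 15 other settings, and differed by -0.14 ± 0.094 for 60 min against control. MRTFB differed by -0.46 ± 0.16 for 60 min against control, with an adjusted p-value of 0.0542. ELK1 (0.09 ± 0.064) and ELK3 (-0.06 ± 0.15) did not pass the threshold for 60 min against control. SCAI, a repressor of MRTFA, was dim and detected on 3 arrays. It differed by 0.68 ± 0.22 for 30 min and by 0.44 ± 0.22 for 60 min against control, and neither passed. MYOCD, or myocardin, the cofactor of smooth and cardiac muscle, was not above background on any array.

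Among cytoskeletal genes known as targets of SRF with MRTF or myocardin, 19 of 27 had a positive difference for 60 min against control. The median of all genes was -0.0083. This list and the others were chosen with earlier results of these data known, so counts of signs are a description. The list has 36 genes besides the 10 members, of which 32 have a probe and 27 were above background. None of the 27 passed an adjusted p-value of 0.05 (limma) for 30 min against control, where 0.327% of all genes did. At an unadjusted p-value under 0.05, 4 were lower and none higher. The share of all genes under that unadjusted value was not counted. Nothing is read from such counts, here or in the other lists. For 60 min against control 7 rose and 1 fell, and 19 did not pass the threshold, while 22.9% of all genes passed it (10.5% higher and 12.3% lower). For 60 min against 30 min 8 rose and none fell, while 22.6% of all genes passed (10.9% higher and 11.7% lower), and 2 were lower at an unadjusted p-value under 0.05. The median difference was 0.086 for 60 min against control and 0.14 against 30 min, where all genes had -0.0083 and -0.0088.

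CSRP1, a LIM protein of the cytoskeleton, had the largest difference of these genes, at 9.98 and 9.90 in 60 min cells against 9.62 and 9.53 in control cells. It rose by 0.36 ± 0.074 against control (limma, adjusted p = 0.00499). ACTN1, the actin crosslinker alpha-actinin 1, rose by 0.30 ± 0.055 (adjusted p = 0.00318), ITGA5, the fibronectin receptor subunit, by 0.28 ± 0.073 (adjusted p = 0.0171), and TPM1, a tropomyosin, by 0.22 ± 0.067 (adjusted p = 0.0316). The ITGA5 and TPM1 calls were each lost under 5 of 15 other settings. PDLIM7, a PDZ and LIM protein, rose by 0.30 ± 0.089 (adjusted p = 0.0297), but its other probe gave 0.07. The PDLIM7 call was lost under 6 of 15 other settings. TPM4 and the non-muscle myosin MYH9 each rose by 0.21 and are named after their values were seen. Their calls were lost under 6 and 3 of 15 other settings. CNN2, a calponin of non-muscle cells, fell by 0.23 ± 0.073 (adjusted p = 0.04), with levels of 9.30 and 9.33 at 60 min against 9.56 and 9.53 in control cells, a call lost under 9 of 15 other settings. At 60 min against 30 min CNN3, another calponin, rose by 0.32 ± 0.068 (adjusted p = 0.00635), beside ITGA5, CSRP1, ACTN1 and PDLIM7. The count of 8 for 60 min against control depended on the scaling and on single arrays: it was 0 under median scaling, 2 without an intensity trend in the variance, and 2 without control replicate 1 and 2 without control replicate 2. The count against 30 min was 3 under median scaling, 4 without that trend, and 5 without either 30 min replicate. The median against control stayed above 0 under all 15 settings, from 0.049 to 0.12, and that against 30 min was 0.053 under median scaling and 0.098 without 60 min replicate 2. Median scaling also moved the share of higher genes among all calls for 60 min against control to 24.4%, where it was 46.1% with quantile normalization.

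Among immediate early genes known as targets of SRF with ternary complex factors, 9 of 11 had a negative difference for 60 min against control. The median of all genes was -0.0083. The list has 16 genes, of which 14 have a probe and 11 were tested. None passed for 30 min against control (limma, 2 with an unadjusted p-value under 0.05). For 60 min against control 6 of the 11 fell and 1 rose, where 12.3% of all genes fell and 10.5% rose. The median was -0.31, and it was -0.19 without 60 min replicate 2 and -0.42 under median scaling. For 60 min against 30 min 4 fell and 1 rose, where 11.7% of all genes fell and 10.9% rose, and the median was -0.23, or -0.15 without 60 min replicate 2. FOSB, a subunit of the AP-1 transcription factor, read 6.59 and 6.54 at 60 min against 7.58 and 7.52 in control cells, and it fell by 0.98 ± 0.12 (limma, adjusted p = 0.000394). FOS, its relative, read 7.11 and 7.39 in control cells, 7.48 and 7.80 at 30 min, and 6.76 and 6.56 at 60 min. It fell by 0.59 ± 0.15 against control (adjusted p = 0.0175) and by 0.97 ± 0.15 against 30 min (adjusted p = 0.00155). JUNB fell by 0.59 ± 0.18 (adjusted p = 0.0335), IER5 by 0.39 ± 0.062 (adjusted p = 0.00128), and MCL1, a survival protein, by 0.31 ± 0.092 (adjusted p = 0.0293). EGR1, named after its value was seen, fell by 0.31 ± 0.093 (adjusted p = 0.0334). IER3 rose by 0.23 ± 0.069 (adjusted p = 0.0314). Of 15 other settings, the FOS and MCL1 calls against control were each lost under 4. Those of JUNB and IER3 were each lost under 5, and that of EGR1 under 6. These genes are dim in part, and without background correction the differences for 60 min against control were -0.55 for FOSB, -0.32 for FOS and -0.26 for JUNB. ZFP36, an RNA-binding protein that promotes mRNA decay, fell by 0.55 ± 0.14 at 60 min against 30 min (adjusted p = 0.0138). The ZFP36 call was lost under 3 of 15 other settings. The count of 7 for 60 min against control was 3 in the fit with no variance trend, 3 when control replicate 1, control replicate 2 or 60 min replicate 2 was left out in turn, and 4 with no filter on dim probes. The count of 5 for 60 min against 30 min was 3 with no variance trend and 3 without 30 min replicate 2. FOSB and IER5 passed in both comparisons of 60 min under all 15 settings.

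Targets of YAP and TEAD other than CCN1 and CCN2 were taken from a commonly used signature of 22 genes, all with a probe and 16 tested. None passed for 30 min against control (limma, 1 with an unadjusted p-value under 0.05). In the 60 min comparison with control 2 of the 16 fell, near the 12.3% of all genes that fell, and none rose (1 higher at an unadjusted p-value under 0.05), where 10.5% of all genes rose. The median was -0.17, and it was -0.081 without background correction and -0.10 without control replicate 2. For 60 min against 30 min 2 fell and 1 rose, where 11.7% of all genes fell and 10.9% rose, with a median of -0.18 that lay between -0.23 and -0.058 over the other settings. That 1 rise was lost under 13 of 15 other settings. FJX1 fell by 0.55 ± 0.085 (limma, adjusted p = 0.00106), with levels of 9.51 and 9.45 at 60 min against 10.02 and 10.04 in control cells. FOXF2, a forkhead transcription factor, fell by 0.54 ± 0.069 (adjusted p = 0.000448), with levels of 10.18 and 10.23 at 60 min against 10.69 and 10.79 in control cells. FJX1 and FOXF2 also fell against 30 min, by 0.47 and 0.42, and both passed in both comparisons under all 15 settings.

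Genes that bind, sever, cap or nucleate actin, and genes that regulate them, held more members that rose than fell at 60 min against control. The list has 42 genes, of which 38 have a probe and 37 were tested. None passed for 30 min against control (limma, 4 with an unadjusted p-value under 0.05). At 60 min, 9 rose against control, 3 fell and 25 did not pass, with a median of 0.048, where 10.5% of all genes rose and 12.3% fell. For 60 min against 30 min 7 rose and 2 fell, with a median of 0.032, where 10.9% of all genes rose and 11.7% fell. GSN, or gelsolin, which severs and caps filaments, read 8.31 and 8.62 at 60 min against 7.89 and 7.87 in control cells. It rose by 0.59 ± 0.12 (limma, adjusted p = 0.0048). PFN2, a profilin that binds actin monomers, read 12.14 and 12.25 at 60 min against 11.76 and 11.80 in control cells, and rose by 0.41 ± 0.058 (adjusted p = 0.00064). CAP2, a cyclase-associated protein that acts on actin monomers, rose by 0.41 ± 0.071 (adjusted p = 0.00216), the formin DIAPH2 by 0.37 ± 0.10 (adjusted p = 0.0248) and the cofilin phosphatase SSH3 by 0.27 ± 0.087 (adjusted p = 0.0432). The DIAPH2 call was lost under 6 of 15 other settings and the SSH3 call under 7.

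The formin DIAPH1 fell by 0.20 ± 0.060 at 60 min against control (limma, adjusted p = 0.0324), and its other probe gave -0.16. The DIAPH1 call was lost under 6 of 15 other settings, among them without either control array. With the mean of the probes of each gene, 1 gene of the list fell against control in place of 3. The GTPase CDC42 rose by 0.48 ± 0.092 at 60 min against 30 min (adjusted p = 0.00401), where its other probes gave 0.27 and -0.33. ARPC1B, an Arp2/3 subunit, rose by 0.40 ± 0.13 (adjusted p = 0.0455) in the same comparison, a call lost under 6 of 15 other settings. The count of 12 for 60 min against control was 4 under median scaling, 3 without the trend in the variance, 4 without control replicate 1 and 3 without control replicate 2, and the median was -0.0053 without control replicate 1 and 0.0051 without 60 min replicate 2. The count of 9 against 30 min was 4 under median scaling, 4 without the trend, 5 without 30 min replicate 2 and 5 without 60 min replicate 1. GSN passed in both comparisons of 60 min under all 15 settings, and PFN2 did so against control. Over all lists and marker genes, 33 genes passed for 60 min against control, where 22.9% of all genes did. This count includes the fibroblast gene LUM, which was kept only through the 60 min arrays, so its call is not read as a test. Of the 33, 6 passed under all 15 settings: FOSB, IER5, FJX1, FOXF2, GSN and PFN2.

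**Figure D3:**
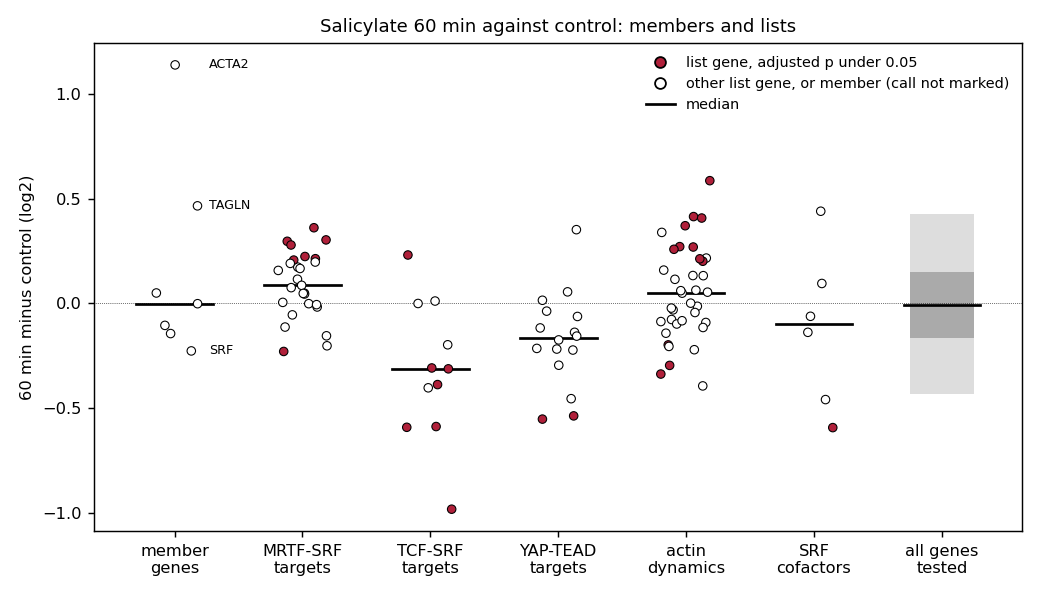
Log2 difference for 60 min of salicylate minus control (y axis) of each gene, by list (x axis). Filled points passed an adjusted p-value of 0.05, open points are list genes that did not, or members, whose calls are not marked, bars are medians, and the grey bands hold the 25th to 75th and the 5th to 95th percentile of all 12547 genes. ACTA2 stands at 1.14, above all points of the lists, and the targets of SRF with ternary complex factors have a median of -0.31 (-0.19 without 60 min replicate 2).

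Markers of cell types were checked, since ACTA2 and TAGLN mark smooth muscle and myofibroblasts. Of 6 genes typical of HEK293 cells, 5 were above background (KRT8, KRT18, VIM, NEFL and NEFM), and PAX2 was not. Of 7 other smooth muscle genes only SMTN was above background on any array, and MYH11, DES, LMOD1, SYNPO2, MYOCD and CASQ2 were not. All but CASQ2 also stand in the lists of SRF targets or cofactors. The summed normalized intensity of that list, which is SMTN alone, was 223.3 and 213.1 in control cells, 193 and 201.9 at 30 min, and 228.9 and 230.6 at 60 min. Of 9 fibroblast genes 5 were kept, all dim, with a sum of 421.1 and 461.4 in control cells, 423.2 and 424.8 at 30 min, and 519.8 and 511.6 at 60 min. The sum was higher at 60 min, but it includes LUM, which was kept only because it was detected at 60 min, so nothing is drawn from it. LUM, a matrix proteoglycan, was detected on the 2 arrays of 60 min and on no other, with a level at 60 min at least 1.52-fold that of control cells. It entered the fit only through the 60 min arrays, so no test of it is given. The bound sets the 60 min mean against the lowest detected signal of each control array or LUM's own value, whichever is higher. COL3A1, a fibrillar collagen, rose by 0.51 ± 0.14 at 60 min against 30 min (limma, adjusted p = 0.0233), a call lost under 6 of 15 other settings. DCN, a matrix proteoglycan detected on 3 arrays, went the other way, with -0.21 ± 0.20 for 60 min against control and -0.47 ± 0.20 against 30 min (limma, adjusted p = 0.477 and 0.102). COL1A1 and PDGFRA did not pass either, and COL1A2, PDGFRB, THY1 and POSTN were not above background. The part of these markers in the ACTA2 difference was not tested. The sum of the HEK293 markers was 26990 and 28730 in control cells, 28290 and 27420 at 30 min, and 29920 and 31210 at 60 min, and KRT8 and NEFL rose by 0.26 ± 0.059 and 0.33 ± 0.074 at 60 min against control (adjusted p = 0.00889 for KRT8 and 0.00813 for NEFL). None of 7 blood and endothelial markers with a probe was above background.

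The genes whose pattern over the 6 arrays was most like that of ACTA2 were HTRA1 (Pearson r = 0.999), SPON1 (0.998), MT1F (0.998), NIPSNAP1 (0.997) and AMHR2 (0.997). They come from 1195 genes whose group means spanned at least 0.5 on the log2 scale, and the 6 arrays share their labelling and normalization, so r is a description. The differences for 60 min against control were 0.69 for HTRA1, a secreted protease, 0.59 for SPON1, a matrix protein, 0.56 for the metallothionein MT1F, 0.65 for NIPSNAP1, a mitochondrial protein, and 0.95 for AMHR2, the receptor of anti-Müllerian hormone. Their differences for 30 min against control lay between -0.04 and 0.04. For CCN1 the highest correlations were lower, at 0.85 for BICD1, 0.809 for VPS53, 0.803 for VASN, 0.799 for DRAM1 and 0.786 for DIDO1. In the RefSeq annotation ACTA2 overlaps FAS and has STAMBPL1 as a neighbour, and both were looked at after the ACTA2 values were seen. STAMBPL1 differed by 0.10 ± 0.081 and FAS by 0.04 ± 0.20 for 60 min against control, and neither passed the threshold (limma, adjusted p = 0.4 for STAMBPL1 and 0.902 for FAS).

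**Figure D4:**
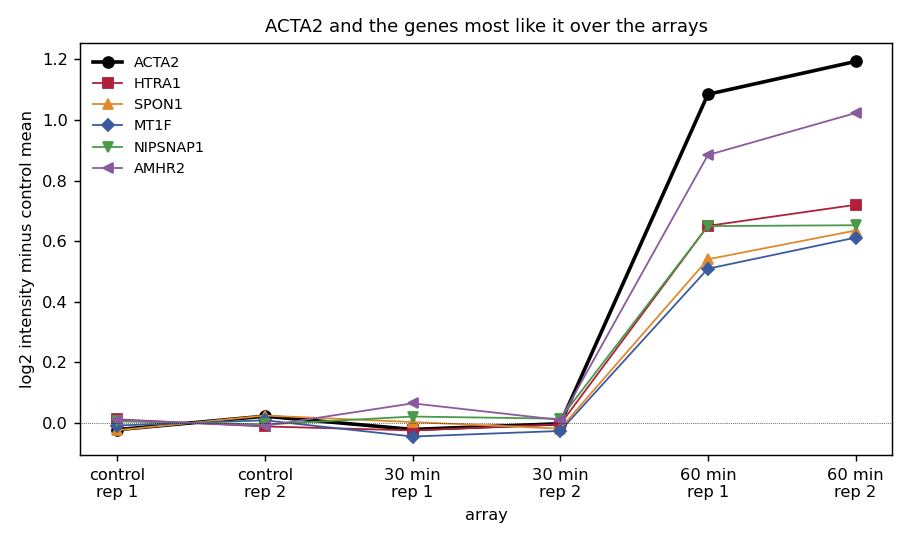
Log2 normalized intensity minus the control mean (y axis) on each of the 6 arrays (x axis) for ACTA2 and the 5 genes most like it. All 6 genes lie near 0 on the control and 30 min arrays and stand higher on both 60 min arrays, with ACTA2 at 1.08 and 1.19.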

How the data were processed

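Total RNA of 6 HEK293 samples was amplified to biotinylated cRNA and hybridised to Illumina human bead arrays, per the labels' protocols. The authors deposited a table of intensity for 47323 probes, on a linear scale and not normalized, with a detection p-value beside each, and a series table of log2 values. The deposited log2 values differ by at most 5e-07 from quantile normalized log2 intensity with no background correction. GenomeStudio 2011.1 and R 2.15.3 are named per the submitters' processing notes. From the deposited intensities, background was removed by normexp, whose control parameters neqc infers from detection p-values (offset 16), before quantile normalization and log2. Probes with a detection p-value under 0.05 on 2 or more of 6 arrays were kept (22377). Symbols came from the platform annotation, updated through the gene identifier to RefSeq names (GRCh38.p14), and the brightest kept probe stood for each of 12547 genes.

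One linear model over the 6 arrays was fitted by group (limma 3.58.1, R 4.3.3, eBayes with a variance trend), and p-values were adjusted by Benjamini-Hochberg over all genes, or over all kept probes for the member probes. As a check of the code, the fit was run on simulated data with independent noise, which says nothing of the spread between real arrays. Rose and fell stand for an adjusted p-value under 0.05. The members and gene lists were chosen with earlier results of these data known. Every probe of the members is named, and from each list, in each comparison, up to 5 genes higher and 5 lower with the largest difference among those past the threshold, as well as all measured SRF cofactors and further actin and CCN genes and the 5 genes most correlated with ACTA2 and with CCN1. A few genes that this rule names are not reported here. Alternatives were no background correction, median scaling, cyclic loess, the deposited series table, no filter on dim probes, detection on all 6 arrays, no variance trend, a replicate block, the mean of the probes of a gene, and leaving out each array. Promoter windows were read from RefSeq and cut to the bases before the start. Precision is limited by the number of arrays: the median SE over genes was 0.0918.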

Additional observations from a re-analysis of the deposited data

How the results depend on the processing

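Over the 15 alternatives no result of the members or lists that had passed the threshold changed direction, and the settings not printed here left the counts, both directions together, within 1.5 times of those reported. By direction small counts moved further: with the mean of the probes of a gene 1 actin dynamics gene fell against control in place of 3, with no filter on dim probes 0 MRTF and SRF targets fell in place of 1, and 12 genes were lower at 30 min in place of 22. ACTA2 for 60 min against control was 1.07 with no background correction, with median scaling and with the deposited series table, and 1.08 to 1.19 without single arrays, and for 60 min against 30 min it was 1.08 under those 3 and 1.09 to 1.20 without single arrays. Median scaling moved the median of all genes to -0.06 for 60 min against control and to -0.065 against 30 min. Under it 84 genes passed for 30 min against control (27 higher), 1654 for 60 min against control (404 higher, 24.4% of calls against 46.1% reported) and 1664 for 60 min against 30 min (443 higher, 26.6% against 48.2%), where 41, 2870 and 2841 were reported. Under it the MRTF and SRF targets counted 0 for 60 min against control and 3 against 30 min, and the actin dynamics genes 4 and 4. Without the trend in the variance 13, 1574 and 1551 genes passed in those 3 comparisons, with 2 and 4 MRTF and SRF targets, 3 and 3 targets of SRF with ternary complex factors, and 3 and 4 actin dynamics genes at 60 min. With no filter on dim probes 4 targets of SRF with ternary complex factors passed for 60 min against control. Without single arrays, where a group left with 1 array is assumed to vary like the others, the counts of all genes ranged from 11 to 167 for 30 min against control, 1230 to 2758 for 60 min against control and 1327 to 2561 for 60 min against 30 min. In the same way the MRTF and SRF targets ranged from 2 to 8 against control and 5 to 9 against 30 min, the targets of SRF with ternary complex factors from 3 to 7 and from 3 to 6, the YAP and TEAD targets from 2 to 3 against control, and the actin dynamics genes from 3 to 12 and from 5 to 8, with 0 to 1 for 30 min against control. Without a single array fewer residual degrees of freedom remain; the cause of the other shifts was not tested. The YAP and TEAD targets for 60 min against 30 min counted 2 in place of 3 without any single array. Groups share the replicate numbers 1 and 2, but the deviations of same-numbered arrays correlated at only 0.0377, 0.0764 and -0.056 over 12547 genes. No large shared deviation was thus seen, but these values cannot settle whether the numbers pair the arrays. With a replicate block 35, 2886 and 2875 genes passed in the 3 comparisons, and 9, 8 and 13 of the MRTF and SRF targets, the targets of SRF with ternary complex factors and the actin dynamics genes for 60 min against control. Of the 33 list and marker genes that passed for 60 min against control 6 passed under all settings, and of the 33 for 60 min against 30 min 9 did. Both counts of 33 include LUM, which was kept only through the 60 min arrays and of which no test is given. Of all genes 22.9% and 22.6% passed in these comparisons. Dim probes near background (TAGLN, ACTA1, LUM) and probes near the top of the range (ACTB and the brighter ACTG1 probe) limit what a difference can show.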
